A study of Arabidopsis thaliana with 6 samples.

Results

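The genes described here make, control or report the plant defence hormone salicylic acid in Arabidopsis thaliana leaves. Their members were listed as 10 probe sets of the Affymetrix ATH1 array, of which 7 were in the deposited table of normalized intensities, among 15177 probe sets tested. They are 262177_at for ICS1 (AT1G74710), 252921_at for EDS5 (AT4G39030), 252060_at for PAD4 (AT3G52430), 246821_at for CBP60G (AT5G26920), 266385_at for PR1 (AT2G14610), 251625_at for PR2 (AT3G57260, also BGL2) and 259925_at for PR5 (AT1G75040). The other 3, listed as 250286_at for PBS3, 265658_at for ALD1 and 256012_at for FMO1, were not analysed here. The gene names are those under which the probe sets were listed, since the platform annotation used here named 0 of the 7.

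The saliva group received artificial diet of sucrose and amino acids given to green peach aphids (Myzus persicae) to feed on, 50 aphids for 24 h on 50 µL, and the diet of 20 aphids was collected. The control group received the same kind of diet from cups with 0 aphids. In both groups the diet was pushed by syringe into leaves of 3-week-old wild-type Col-0 plants, and leaves were taken after 24 h. Infiltration and the artificial diet itself were thus common to all samples. A difference between diets below means saliva diet against control diet. Each sample pooled 18 leaves from 6 plants and was read on 1 array, in 3 repeats of the whole experiment, with saliva and control plants of a repeat sharing pots. The aphids came from a tobacco-adapted lineage that had been raised on cabbage.

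Salicylic acid is made in stressed leaves mainly from chorismate in the plastid. ICS1 turns chorismate into isochorismate, EDS5 exports the product to the cytosol, and PBS3 attaches glutamate to it before salicylic acid is released. PAD4, with its partner EDS1, and the calmodulin-binding transcription factor CBP60G promote this synthesis, and ALD1 and FMO1 make the mobile signal N-hydroxypipecolic acid. PR1, PR2 and PR5 encode secreted pathogenesis-related proteins whose transcripts are the usual readout of the hormone, and phloem-feeding aphids are known to be among the attackers that can raise them.

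The PR marker transcripts had the larger differences and the synthesis genes the smaller ones. On average over the repeats, PR2 was 2.11-fold, PR1 1.43-fold and PR5 1.38-fold in saliva leaves over control leaves. PAD4 was 1.29-fold, while ICS1 and EDS5 were 1.09-fold and 1.05-fold, with CBP60G close to ICS1. All 7 means lay above 0 on the log2 scale, as did 7562 of the 15177 tested probe sets. The median difference of the 7, saliva minus control, was 0.36, against a median of -0.00056 over all tested probe sets. None of the 7 passed the test. With repeats as pairs in limma, 0 of the 7 had an adjusted p under 0.05 in either direction, as had 0% of all probe sets higher and 0% lower, and the lowest adjusted p of any probe set was 0.338. At an unadjusted p under 0.05, 2 of the 7 were higher in saliva leaves, PR1 and PR2, where 5.59% of all probe sets were. Without the replicate block these were PR2 and PR5, and with probe sets kept from a mean log2 of 4 they were PR1, PR2, PR5 and PAD4. The share of all probe sets was not counted for these alternative fits. In such whole leaf samples, more cells with a transcript and more of it per cell cannot be told apart.

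ICS1, the first enzyme of the pathway, had intensities of 133.8, 99.3 and 124.2 in saliva leaves of repeats 1, 2 and 3, against 101.4, 97.4 and 129.3 in control leaves. The groups overlapped, with saliva above control in repeats 1 and 2 and below it in repeat 3. The log2 difference was 0.12 ± 0.24 (SD, n = 3 repeats), with a 95% interval of -0.20 to 0.45 and a limma adjusted p of 0.750. That interval runs from 0.872-fold to 1.36-fold. Without replicate 1 the mean difference was -0.015, so its direction rests on that repeat.

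EDS5, the transporter, had 108.5, 95.1 and 96.9 in saliva leaves of repeats 1, 2 and 3 and 95.7, 92.6 and 96.3 in control leaves. It was the steadiest of the 7 genes, with values within 1.14-fold of each other in saliva leaves and 1.04-fold in control leaves, and saliva higher in each repeat by 1.13-fold, 1.03-fold and 1.01-fold. The difference was 0.076 ± 0.092 on the log2 scale (95% interval -0.14 to 0.29, limma adjusted p = 0.779). The upper end of this interval corresponds to 1.23-fold.

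PAD4, the regulator that acts with EDS1, had 93.7, 88.2 and 77.4 in saliva leaves and 86.4, 53.7 and 64.5 in control leaves of repeats 1, 2 and 3. Each saliva value exceeded the control of its own repeat, but the groups overlapped because the control of repeat 1 was above the saliva sample of repeat 3. Its log2 difference was 0.36 ± 0.31 (95% interval -0.017 to 0.75, limma adjusted p = 0.463). Repeat 2 gave most of it, at 0.72, against 0.12 in repeat 1 and 0.26 in repeat 3, and without replicate 2 the mean was 0.19.

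CBP60G, the transcription factor that switches on ICS1, had 307.4, 313.9 and 222.2 in saliva leaves and 213.4, 295.2 and 258.9 in control leaves. Saliva over control was 1.44-fold in repeat 1, 1.06-fold in repeat 2 and 0.858-fold in repeat 3. The mean log2 difference was 0.13 ± 0.38 (95% interval -0.31 to 0.57, limma adjusted p = 0.823), and it was -0.066 without replicate 1.

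PR1, the marker most used for salicylic acid responses, had 1548, 928.3 and 2596 in saliva leaves of repeats 1, 2 and 3, against 1207, 713.2 and 1470 in control leaves. Saliva was above control in each repeat, by 1.28-fold, 1.30-fold and 1.77-fold, yet the groups overlapped, because the saliva sample of repeat 2 was lower than the controls of repeats 1 and 3. The log2 difference was 0.52 ± 0.26 (95% interval 0.18 to 0.86, unadjusted p = 0.0119, limma adjusted p = 0.362). In the fit without the replicate block the unadjusted limma p was 0.281, as the spread between repeats then counted as error.

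PR2, a beta-1,3-glucanase that cuts fungal cell wall glucan, had 1636, 1082 and 1894 in saliva leaves and 806.7, 732.8 and 607.2 in control leaves. It was the 1 gene of the 7 whose groups did not overlap, with the lowest saliva value above the highest control value, as was the case for 7.66% of all probe sets. The ratios in the repeats were 2.03-fold, 1.48-fold and 3.12-fold. The log2 difference was 1.07 ± 0.54 (95% interval 0.47 to 1.68, unadjusted p = 0.00705, limma adjusted p = 0.358), and 73 of the 15177 probe sets, 0.481%, had a larger mean difference.

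PR5, a thaumatin-like protein, had 1452, 911.0 and 1382 in saliva leaves, against 843.9, 936.3 and 884.4 in control leaves. The saliva samples of repeats 1 and 3 stood above all controls, at 1.72-fold and 1.56-fold of their own, and the controls lay within 1.11-fold of each other. In repeat 2 the ratio was 0.973-fold. The log2 difference was 0.46 ± 0.44 (95% interval -0.041 to 0.97, limma adjusted p = 0.471), and it was 0.71 without replicate 2 and 0.30 without replicate 1.

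**Figure D1:**
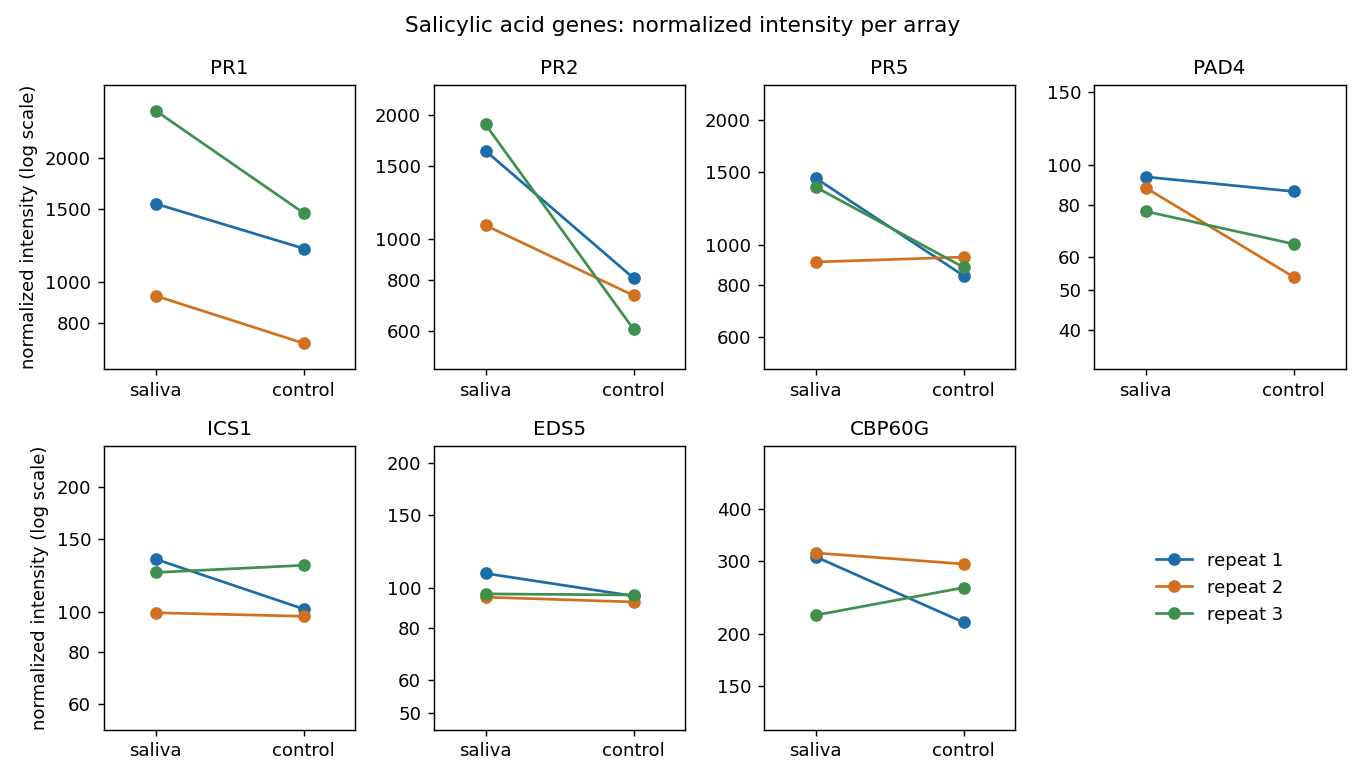
Normalized intensity (log scale) of each gene on the saliva and control arrays, with a line joining the samples of a repeat. PR2 has all saliva values, 1082 to 1894, above all control values, 607.2 to 806.7, whereas the PR1 lines lie one above another by repeat.

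Saliva was above control in each of the 3 repeats for 4 of the 7 genes, PR1, PR2, PAD4 and EDS5, where 16.7% of all probe sets were. The repeat with the largest difference varied from gene to gene. PR1 and PR2 had their largest log2 differences in repeat 3, at 0.82 and 1.64. ICS1, EDS5 and CBP60G had theirs in repeat 1, at 0.40, 0.18 and 0.53, and their smallest in repeat 3, at -0.057, 0.0088 and -0.22. PR5 also had its largest in repeat 1, at 0.78, against 0.64 in repeat 3, and PAD4 had its largest in repeat 2. Over ICS1, EDS5, PAD4 and CBP60G the median difference was 0.29, 0.064 and -0.024 in repeats 1, 2 and 3, and over the PR genes it was 0.78, 0.38 and 0.82. The difference between these groups of genes was not tested. The median over all probe sets was -0.016, 0.0085 and 0.0050 in the same repeats.

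**Figure D2:**
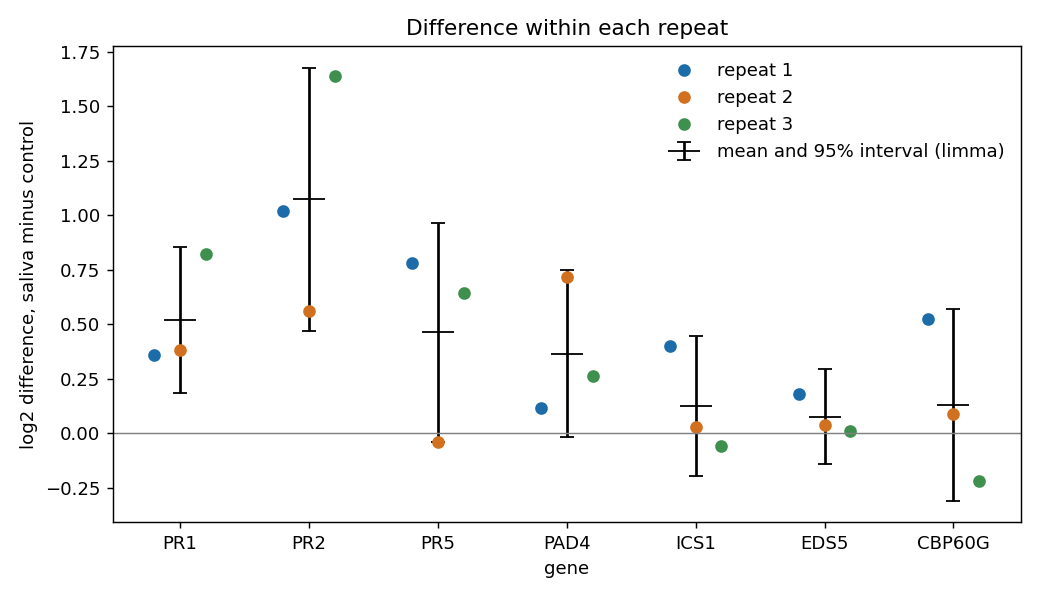
Log2 difference, saliva minus control, of each gene within each repeat (points), with the mean and the 95% interval of the paired limma fit. The intervals of PR1, from 0.18, and PR2, from 0.47, lie above 0, and those of the other 5 genes include 0. They are not adjusted for the number of probe sets.

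Among the 7 genes, PR1 had the widest spread of levels between the repeats. Its mean over saliva and control leaves was 10.42, 9.67 and 10.93 on the log2 scale in repeats 1, 2 and 3, a 2.40-fold span, which was larger than its difference between the diets. Within the saliva group the highest PR1 value was 2.80-fold the lowest, and within the control group it was 2.06-fold. The control SD of PR1, 0.54 on the log2 scale, was exceeded by 1.38% of all probe sets. The limma F-test between repeats gave PR1 an unadjusted p of 0.00216 and an adjusted p of 0.931. It called 0 of the 7 genes and 0% of all probe sets at an adjusted p under 0.05. At an unadjusted p under 0.05 it picked 1 of the 7, PR1, and 4.92% of all probe sets. For the other 6 genes the repeat means spanned 1.09-fold to 1.31-fold. The raw file names set repeat 1 apart from repeats 2 and 3, and that grouping cannot be told apart from the repeats themselves.

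The sum of squares of the 6 log2 values was split into the parts that go with saliva or control diet, with repeat and with neither. These parts hold 1, 2 and 2 of the 5 degrees of freedom. For PR2, 79.8% went with diet and 6.67% with repeat. PR5 had 53.0% with diet, but also 32.0% with neither, the part in which its repeats were unlike. PR1 was the reverse of PR2, with 19.4% for diet, 77.3% for repeat and 3.25% for neither. ICS1 had 10.4% with diet and 62.8% with repeat, and CBP60G had 8.85% and 43.1%. Over all probe sets the median shares were 18.2% for diet, 32.9% for repeat and 35.7% for neither.

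**Figure D3:**
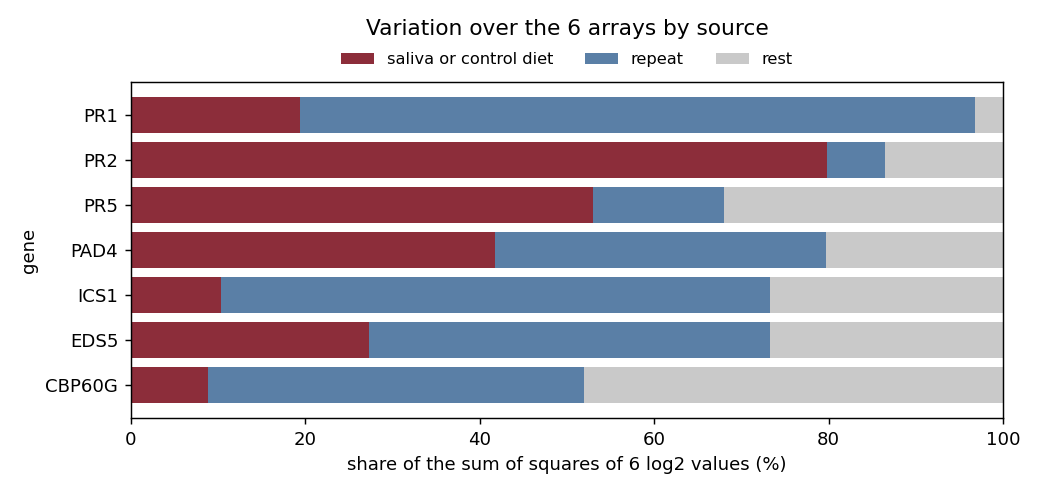
Share of the sum of squares of each gene's 6 log2 values that goes with saliva or control diet, with repeat and with neither, in percent. Diet holds 79.8% for PR2 and 19.4% for PR1, and repeat holds 6.67% and 77.3%.

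Among all tested probe sets, the mean differences of PR1, PR5 and PAD4 were exceeded by 2.62%, 3.35% and 5.35%. CBP60G, ICS1 and EDS5 were exceeded by 21.7%, 22.8% and 31.2%. The SD of the 3 differences was also high for PR2 and PR5, with 5.79% and 10.1% of probe sets above them, and low for EDS5, with 77.3% above it.

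**Figure D4:**
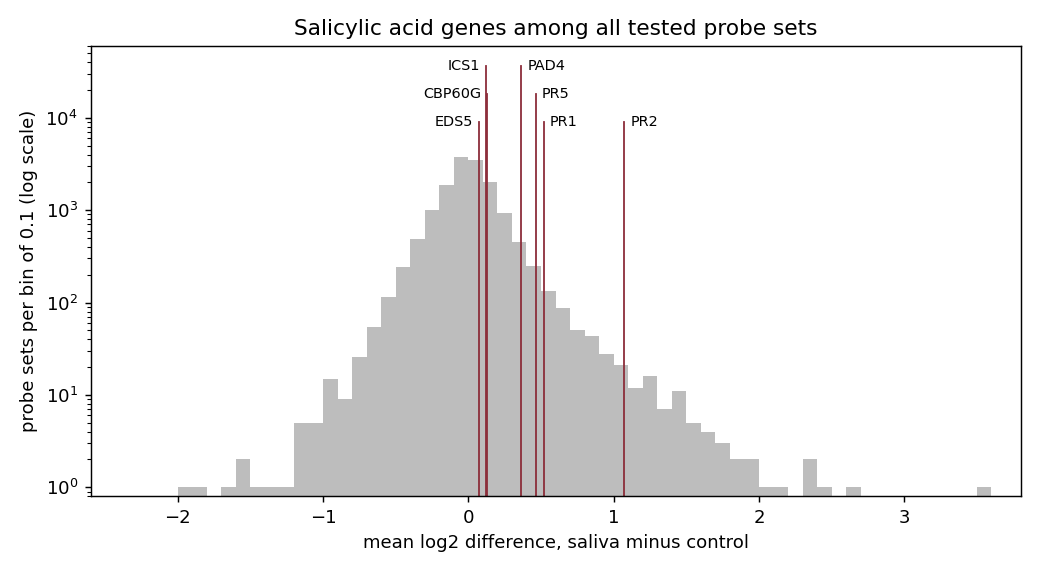
Number of probe sets (log scale) by mean log2 difference, saliva minus control, in bins of 0.1, with the 7 genes marked by vertical lines whose height has no meaning. PR2 at 1.07 lies in the upper tail, and EDS5 at 0.076, ICS1 at 0.12 and CBP60G at 0.13 lie in the bulk.

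The authors' deposited table gives PR2 a fold of 2.15 with a paired false discovery rate of 0.0491 and an unpaired rate of 0.230. Of the 7 genes, 1, PR2, thus lies under a paired rate of 0.05 on the saliva side of the authors' deposited table, as do 1.41% of all probe sets. For PR1 the authors' deposited table lists a fold of 1.496 and a paired rate of 0.177, and for PR5 1.41 and 0.161. PAD4 has a fold of 1.27 and a paired rate of 0.160 in the authors' deposited table, and the paired rates of ICS1, EDS5 and CBP60G there are 0.515, 0.422 and 0.626.

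Across the 6 arrays the log2 values of PR2 and PR5 ran closest together among the 21 pairs of the 7 genes, with a Pearson correlation of 0.90. PR1 correlated at 0.77 with ICS1, 0.66 with PR5 and 0.63 with PR2. CBP60G stood apart, with correlations from -0.54 with PR1 to 0.25 with EDS5, and it was in each of the 4 pairs below 0. These 6 points share repeats and diets, so the correlations only describe them.

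Of 6133 probe sets with 1 named gene and a mean log2 value of at least 5, the 5 whose log2 values were most like those of PR1 over the 6 arrays had Pearson correlations of 0.97 to 0.99. They were AT1G09010, SDH1-1 (a succinate dehydrogenase subunit), AT4G12490, AT5G37740 and PRXIIF (a peroxiredoxin). AT4G12490 came near PR1 also in size, with 992.2, 629.8 and 1472 in saliva leaves of repeats 1, 2 and 3 and 688.3, 421.2 and 761.2 in control leaves. Its log2 difference was 0.69 ± 0.23. The other 4 differed by 0.034 to 0.16 on the log2 scale, so they shared the pattern over the arrays and not its size. As these are the highest of 6133 correlations over only 6 arrays, they describe likeness, and shared regulation was not tested.

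Other genes of the pathway were taken from 4 lists of 78 loci, of which 8 had a named probe set, beside the 7 above, and 0 of these 8 passed the limma test. The annotation used here gave 1 gene for 8330 of the 15177 tested probe sets. A locus without a named probe set may thus still have been measured. In the synthesis and modification list of 19, GH3.5 (symbol WES1), which conjugates salicylic acid and auxin to amino acids, had dim values of 7.36, 17.7 and 22.6 in saliva leaves, against 5.74, 5.68 and 5.70 in control leaves. Its groups did not overlap, with saliva above control as for 7.66% of all probe sets, and the log2 difference was 1.33 ± 0.86 (unadjusted p = 0.0154, limma adjusted p = 0.368). AT2G21340, listed as the EDS5 homologue, had 341.6, 375.9 and 338.2 in saliva leaves and 365.8, 436.3 and 393.0 in control leaves. It was lower in saliva leaves in each repeat, at -0.18 ± 0.068 (limma adjusted p = 0.493), and the share of all probe sets lower in each repeat was not counted. BSMT1, which methylates salicylic acid, was near the lowest intensities in both groups, between 4.88 and 6.44 in saliva leaves and between 4.98 and 5.05 in control leaves.

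In the N-hydroxypipecolic acid list of 4, AT5G52810, listed as SARD4, a reductase in pipecolic acid synthesis, had 278.1, 277.1 and 246.0 in saliva leaves, against 329.0, 310.3 and 300.9 in control leaves. The saliva values all lay below the control values, as for 8.58% of all probe sets, with a log2 difference of -0.23 ± 0.064 (unadjusted p = 0.0348, limma adjusted p = 0.419). UGT76B1, which attaches glucose to salicylic and N-hydroxypipecolic acid, was dim in both groups, with 7.11 to 9.01 in saliva leaves and 7.11 to 8.31 in control leaves.

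Among 35 listed regulators and receptors, 2 had a named probe set beside PAD4 and CBP60G. SAG101, the other lipase-like partner of EDS1, had 97.5, 75.9 and 75.1 in saliva leaves and 65.6, 81.6 and 58.0 in control leaves. WRKY53, a transcription factor of senescence and defence, had 870.4, 836.1 and 599.8 in saliva leaves, against 533.3, 893.4 and 552.8 in control leaves. GRX480, a glutaredoxin induced by salicylic acid and the 1 named gene of 20 response markers beside the PR genes, had 256.4, 261.0 and 276.2 in saliva leaves, against 174.4, 338.6 and 223.1 in control leaves. For SAG101, WRKY53 and GRX480, saliva was above control in repeats 1 and 3 and below it in repeat 2, at -0.10, -0.096 and -0.38 on the log2 scale. PR5 had the same signs, with -0.039 in repeat 2. The share of all probe sets with these signs was not counted. The limma adjusted p-values of SAG101, WRKY53 and GRX480 were 0.570, 0.667 and 0.822.

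Leaf identity was checked with mesophyll genes. LHCB4.1, PSAN and PSBW, of the photosystems, had intensities of 12431 to 28085 in saliva leaves and 13376 to 29573 in control leaves, where the median per array was between 139.2 and 146.8. Each of these 3 was lower in saliva leaves in all 3 repeats, with log2 differences of -0.070 ± 0.022 for LHCB4.1, -0.15 ± 0.057 for PSAN and -0.091 ± 0.019 for PSBW (limma adjusted p = 0.772, 0.543 and 0.689). The share of all probe sets that were lower in all 3 repeats was not counted. The guard cell gene FAMA had 65.5, 69.4 and 66.2 in saliva leaves and 44.3, 59.8 and 76.5 in control leaves, with a log2 difference of 0.19 ± 0.39. The part of these marker differences in the results above was not tested. Named probe sets covered 3 of the 6 listed mesophyll genes and 1 of the 4 guard cell genes. The phloem, epidermis and root marker lists had 0 named probe sets.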

How the data were processed

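For 15236 probe sets on 6 ATH1 arrays the authors deposited linear normalized intensities, in 2 tables that differed in 0 cells, with a fold change (the ratio of group means) and adjusted p-values (false discovery rates), per the file headers. The submitters' processing notes name GCRMA, GCOS and limma, while their roles, versions and a genome build are not given in the sources used here. Unused columns of per-sample values numbered 0.

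Here, 59 Affymetrix control probe sets were left out and log2 was taken with no pseudocount. The lowest intensity of any array was 3.23, and the number of arrays limits the precision. Differences were fitted in limma 3.58.1 (R 4.3.3; lmFit, eBayes), blocking on the replicate number, with Benjamini-Hochberg adjustment over 15177 probe sets at 0.05. The F-test between repeats used the replicate terms of the same fit. The steps were tested on simulated data with noise independent between arrays and added shifts, which does not show their power in these data. The pairing follows the shared pots in the labels' protocols. Deviations from the group means correlated at -0.12, 0.15 and 0.10 across probe sets in pairs 1, 2 and 3. Intervals are 95% intervals of the fit.

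Genes were named through the platform annotation and RefSeq (TAIR10.1), and the 7 members by their list. No coordinates are printed, as no build is given for the arrays. Members and lists were chosen with earlier results of these data known. All members are named. From each list the rule took members past the threshold, otherwise up to 4 with the smallest p, and it took the 5 probe sets most like PR1.

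Alternatives were each replicate left out, no block, median centring or quantile normalization, array weights, a trend in eBayes, probe sets kept from a mean log2 of 4, and other thresholds.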

Additional observations from a re-analysis of the deposited data

How the results depend on the processing

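Counts of called genes stayed at 0, for the 7 genes and for all probe sets, between diets and between repeats, in each alternative fit run, including the one with no replicate block (0 higher and 0 lower) and at an adjusted p under 0.1. At an unadjusted p under 0.05, 2 of the 7 genes were higher and 0 lower in saliva leaves, with 848 probe sets higher and 826 lower, and 1 gene and 747 probe sets differed between repeats. The number of the 7 genes at an unadjusted p under 0.05 between diets was 4 with the mean log2 floor. It was 3 with array weights, the intensity trend, median centring and without replicate 2. In the other fits it was 2, which without the block were PR2 and PR5. The share of all probe sets at that threshold was counted in the main fit only. Leaving out a replicate gave log2 differences of -0.015 to 0.21 for ICS1 and -0.066 to 0.31 for CBP60G, both below 0 without replicate 1 only. The ranges were 0.37 to 0.60 for PR1, 0.79 to 1.33 for PR2, 0.30 to 0.71 for PR5, 0.19 to 0.49 for PAD4 and 0.024 to 0.11 for EDS5; the cause was not tested. Array weights, of 0.622, 2.22 and 0.725 for pairs 1, 2 and 3, gave 0.24 for PR5. The lowest adjusted p among the 7 genes was between 0.207 and 0.789 over these fits. Near the lowest intensities, as for GH3.5, BSMT1 and UGT76B1, the dim signal limits fold changes.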
